A study of Hydra oligactis with 61 samples.

Results

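In *Hydra oligactis*, 49 of the 23396 assembled transcripts were higher in the tip that was regenerating a head at 48 h post amputation (hpa) than in body column tissue, but were not clearly above that tissue in the mature, uninjured head. The members were chosen from measured values. The level of each transcript was the log2 of 1 plus its mean CPM (the count scaled by the library's total), and a member had to be at least 1 higher in head-regenerating (HR) tips at 48 hpa than in the first 4 HR libraries at 0 hpa, while the Head stood less than 0.5 above those same libraries. Of 739 transcripts that passed the rise, the other 690 had a Head above the limit, so the members are the small remainder whose Head stayed under it. In each Head library, 38 to 40 of the members were still at 1 CPM or more. Their label as genes of the regenerating head held only in part. In comparisons that the rule did not use, 22 of the 49 also rose in the opposite, foot-regenerating tip at 24 hpa. Of all transcripts tested, 9.28% did. Against the body column, 26 of the 49 were higher and 18 lower in the mature foot, where 33.7% and 32.3% of all transcripts were. Of the other 690, 23.5% rose in that tip at 24 hpa and 56.8% were higher in the mature foot. The 49 are therefore called members here, by the rule, and not head genes.

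All animals were of the Innsbruck 12 strain, and each library pooled tissue of 30 animals. Regenerating animals were cut at the middle of the body column. HR tips (oral-facing wounds) and foot-regenerating (FR) tips (aboral-facing wounds) were collected at 3, 12, 24 and 48 hpa with 3 libraries at each time, and at 0 hpa with 7 libraries each. At 0 hpa the tissue is body column. FR tips treated for the first 3 h after the cut with 5 µM alsterpaullone (ALP), an inhibitor of the kinase GSK3 that activates Wnt signaling, had 3 libraries at 3, 12 and 24 hpa and 4 at 48 hpa. Uninjured Foot (foot and peduncle) and Head (hypostome and tentacle ring) had 5 libraries each. All groups without ALP received the solvent DMSO, tips collected after 0 hpa for 3 h and those of 0 hpa only briefly. Time and DMSO exposure therefore cannot be told apart in comparisons with 0 hpa. FR pools mix animals that will regenerate a foot with a majority that will not. The 24 hpa tips, 3 of the 7 libraries of each wound at 0 hpa and some Foot and Head libraries formed a second batch, so tips were compared with 0 hpa libraries of their own batch. No label says that replicates came from separate cultures, so the p-values measure the spread between these pools, which may be technical.

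*Hydra* polyps keep an organizer of Wnt signaling at the tip of the head throughout life, and a wound in the body column can rebuild this organizer when it faces the oral direction. Injury itself starts a shared early program at both wounds, with stress responses and calcium and lipid signaling, before the oral and aboral programs part. In *H. vulgaris* this program includes Wnt ligands, whereas the study reports that injury activated Wnt genes weakly or not at all in *H. oligactis*. A regenerating tip is a different tissue from a finished head: it still holds dividing stem cells and closing epithelium, whereas tentacles and hypostome hold differentiated nerve, stinging and gland cells. No sequence of the members was in the files or tables used here, and none is printed.

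Library totals lay between 1.4551e+07 and 2.6108e+07 counts. The Head libraries carried the labelled tissue's signal: the summed level of 10 Wnt pathway transcripts named by the study was 661 to 709 CPM in Head and 631 to 807 CPM in HR tips at 48 hpa, against 183 to 204 CPM in batch 1 HR libraries at 0 hpa. Foot libraries summed to 585 to 616 CPM over 7 foot factors, against 21.1 to 26.2 CPM in batch 1 FR libraries at 0 hpa. Cell makeup moved along with the groups that chose the members. Over 9 cell cycle transcripts, HR tips at 48 hpa summed to 586 to 614 CPM and Head to 105 to 117 CPM, against 680 to 823 CPM at 0 hpa. Over 6 nerve cell peptides, HR tips at 48 hpa summed to 187 to 226 CPM and Head to 1048 to 1344 CPM, against 35.7 to 43.8 CPM at 0 hpa, and over 5 gland cell enzymes the sums were 112 to 124, 323 to 385 and 83.0 to 92.3 CPM. No transcript of these lists was itself a member, and their part in the members' levels was not tested. In these bulk pools, fewer cells of a type and less RNA per cell cannot be told apart.

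The values that chose the members are a description and carry no test. The difference between HR tips at 48 hpa and 0 hpa had a median of 1.19 on the scale of log2(1 + mean CPM), with a range of 1.00 to 3.31, and only 3 members reached 2. The difference between Head and 0 hpa had a median of -0.05 and a range of -1.29 to 0.48. By library totals, Head was below the body column in 26 members, by 0.5 or more in 8. With TMM-scaled library sizes, which allow for differences in RNA makeup, it was below in 18, by 0.5 or more in 3, and above in 31, and the median turned to 0.21. TMM scaling shifted the members' Head differences by a median of 0.29, whereas the CPM values given here for Head are by library totals. For the other 690 transcripts the Head difference had a median of 3.01, and in 602 of them Head was above the HR tips at 48 hpa, so most of the program that is high at 48 hpa is higher still in the finished head. Members spanned mean levels of 1.41 to 337 CPM in HR tips at 48 hpa, with a median of 22.5 CPM, and 9 members were under 1 CPM at 0 hpa.

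Members near the limits were close to those just outside. The smallest rises inside were 1.00 for R036085c0g1_i01, 1.01 for R040530c5g3_i09 and 1.01 for the NBL1 match R031230c0g1_i01, and the largest outside were 0.99 for R039223c1g1_i05, 0.99 for R028692c0g2_i01, a second match to the channel TMEM175, and 0.96 for R027359c1g1_i01. At the Head limit, R036231c0g1_i01 (0.48), the alpha-crystallin match (0.48) and R067361c0g1_i01 (0.45) were inside, whereas R035679c0g1_i03 (0.51), R023158c0g1_i01 (0.51) and a Fascin match, R009668c0g1_i01 (0.52), were outside. The Head limit also depended on scaling. With TMM-scaled library sizes the rule took 40 transcripts, of which 37 were among the 49. The 12 members lost all passed the Head limit, the alpha-crystallin match among them at 0.70. Leaving out HR library 4 at 48 hpa, which was the highest of the 3 in 20 members, left 42 transcripts by the rule, 39 of them members.

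**Figure D1:**
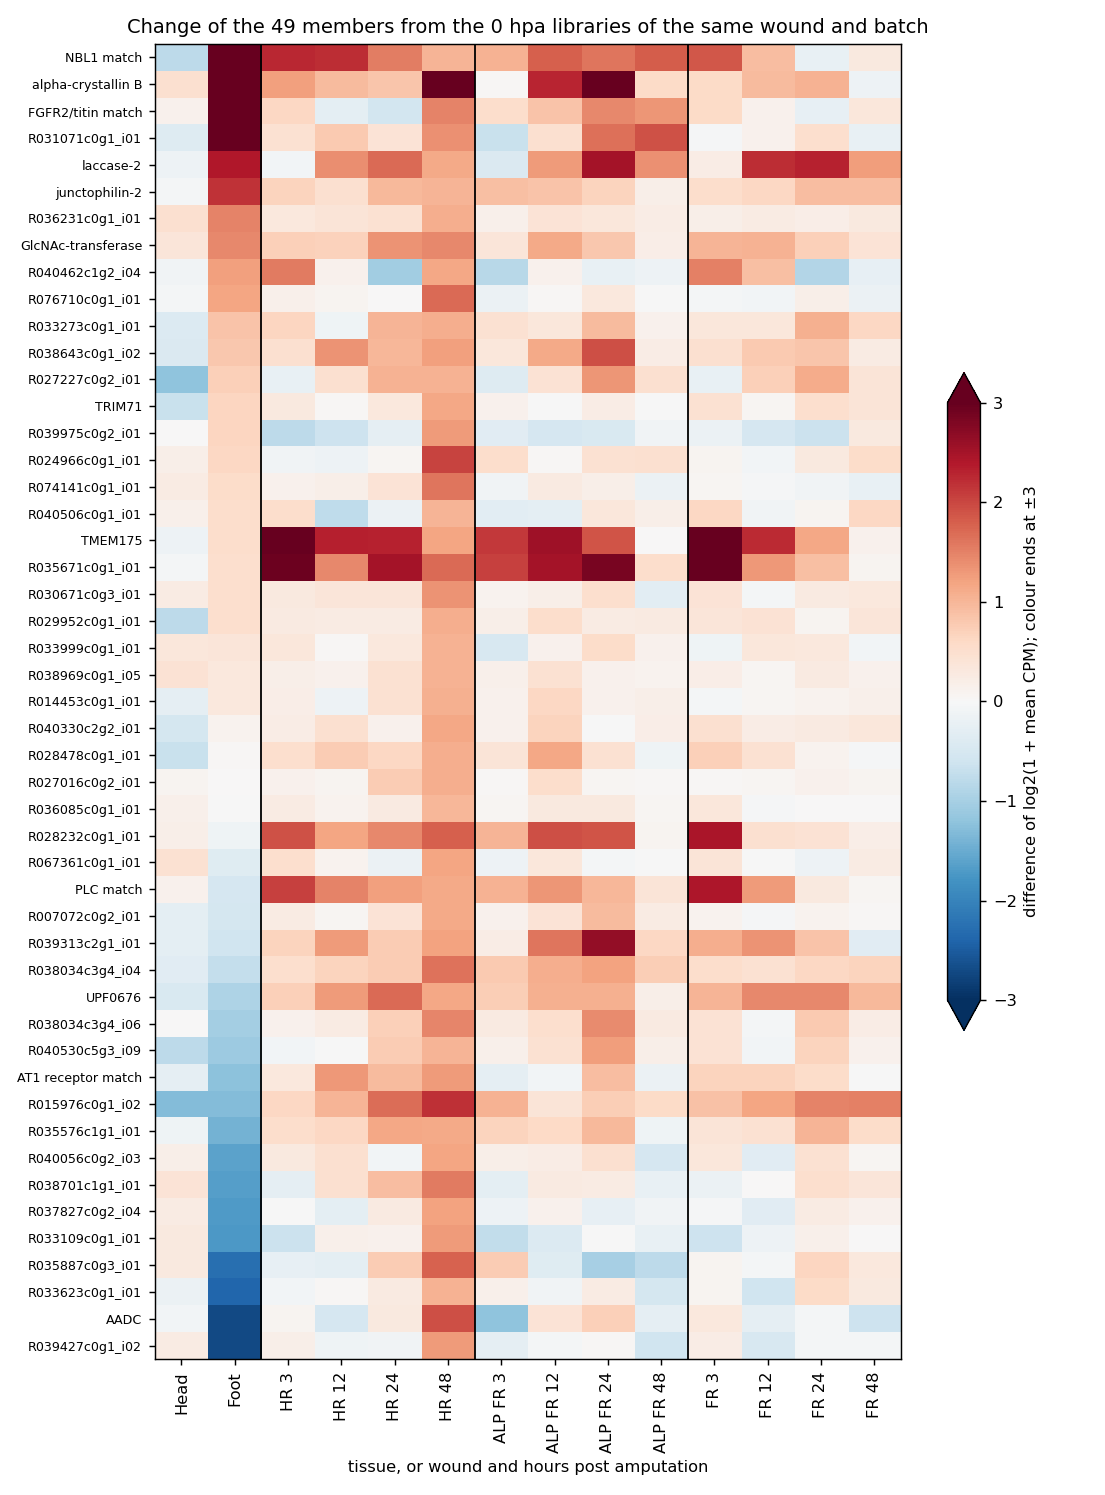
Difference of log2(1 + mean CPM) for each of the 49 members (one horizontal strip each, ordered by the Foot column) in Head, Foot and each tip and time, against the 0 hpa libraries of the same wound and batch. Colours run from -3 to 3, and the HR 48 hpa and Head columns hold the values that chose the members. The Foot column runs from -2.72 to 6.66 with a median of 0.32, and 10 members are higher there by 1 or more.

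Across the whole time course, 48 hpa was the highest HR time for 35 members, 3 hpa for 6, 24 hpa for 5 and 12 hpa for 3. The HR tip at 48 hpa was the highest of all 18 groups, with the 0 hpa libraries split by batch, for 29 members, and the Foot was highest for 7 and lowest for 18. The rule chose members for a high level in HR tips at 48 hpa. The place of that group in these ranks and in the means below partly follows from the rule and is a description. By library totals, the mean log2 level over the 49 members was 4.50 ± 0.14 in HR tips at 48 hpa (SD, n = 3), and the next groups were ALP-treated FR tips at 24 hpa with 3.99 and HR tips at 24 hpa with 3.84. The 48 hpa values differed between libraries for a few members: the highest HR library at 48 hpa was 27.7 times the lowest for R040462c1g2_i04 and 5.81 times for R040506c0g1_i01, against a median of 1.29 times over the members. These unnamed transcripts were chosen after their values were seen, as were R039427c0g1_i02, R033109c0g1_i01, R037827c0g2_i04, R033623c0g1_i01, R040056c0g2_i03, R031071c0g1_i01, R039313c2g1_i01 and R038643c0g1_i02 below.

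A member with a late oral pattern, seen at the time that chose it, is the match to aromatic-L-amino-acid decarboxylase (R014915c0g1_i01), the enzyme that makes dopamine and serotonin from their amino acid precursors. Its level was 35.0, 31.7 and 40.0 CPM in the 3 HR libraries at 48 hpa and 5.88 to 10.1 CPM in the 5 Head libraries, against 4.07, 9.41, 9.90 and 11.2 CPM in the 4 HR libraries at 0 hpa. The 48 hpa libraries were all above the other groups, and Head overlapped 0 hpa. At 24 hpa, HR tips had 9.21, 11.4 and 9.03 CPM and did not pass the test against 0 hpa (log2 fold change 0.39, edgeR adjusted p = 0.295). FR tips at 48 hpa had 2.64, 6.75 and 5.67 CPM, all below the 3 HR libraries of that time. Those HR libraries chose this member, so its late oral pattern is a description and was not tested. Between the wounds at 24 hpa it was not called. The mature foot held almost none, with 0.165 to 0.556 CPM in Foot, against 3.78 to 12.1 CPM in FR libraries at 0 hpa, a log2 fold change of -4.33 ± 0.36 (standard error, edgeR adjusted p = 5.57e-16).

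Other members with such a pattern at 48 hpa, the time that chose them, had no protein name. R024966c0g1_i01 had 11, 14.8 and 14.7 CPM in HR tips at 48 hpa and 2.31 to 3.46 CPM in Head, against 1.84, 2.21, 2.51 and 3.62 CPM at 0 hpa. Its HR tips at 24 hpa, with 3.19, 2.45 and 4.06 CPM, overlapped the 0 hpa libraries. R076710c0g1_i01 had 3.29, 1.92 and 1.97 CPM in HR tips at 48 hpa, whereas Head was at 0 in 4 of its 5 libraries and FR tips at 48 hpa were at 0 in all 3. R074141c0g1_i01 had 2.74, 2.13 and 2.48 CPM in HR tips at 48 hpa and 0.181 to 0.522 CPM in Head, against 0 to 0.394 CPM at 0 hpa. Both low transcripts were also present in Foot, at 1.05 to 2.35 CPM for R076710c0g1_i01 and 0.386 to 1.04 CPM for R074141c0g1_i01. The 48 hpa libraries stood above every other library named here except those of Foot for R076710c0g1_i01, which overlapped them.

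At 24 hpa, a time that the rule did not use, 31 of the 49 members were already higher in HR tips than at 0 hpa and none was lower (edgeR's quasi-likelihood test, adjusted p under 0.01). The members had a median log2 fold change of 0.84, whereas all 17676 transcripts tested had a median near 0, with 11.2% higher and 9.78% lower. The choice of the members and this test both set HR tips against HR tissue at 0 hpa, but in libraries of different batches. With library totals in place of TMM scaling, 29 members were higher and none lower, beside 1515 higher and 2490 lower of all transcripts. Of the members 63.3% were higher, against 47.1% of the 690 transcripts that are also high in Head. Of the 12 members with a protein name, 10 were among the 31. The decarboxylase and the R025924c0g1_i01 transcript were not.

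Some of these members were higher still at earlier times and at both wounds. The match to TMEM175 (R036075c0g1_i01), a potassium channel of endosomes and lysosomes, had 65.4, 44.0 and 73.0 CPM in HR tips at 3 hpa, 36.5, 35.9 and 36.1 CPM at 24 hpa and only 12.6, 14.6 and 20.9 CPM at 48 hpa, against 6.21, 6.86 and 6.45 CPM in the batch 2 libraries at 0 hpa. It was thus lower at the time that chose it than at each earlier time shown, and no HR library overlapped 0 hpa. The rise to 24 hpa was 2.54 ± 0.24 (log2 fold change and standard error, edgeR adjusted p = 3.08e-12). FR tips showed the same early peak, with 72.1, 63.2 and 98.4 CPM at 3 hpa, against 4.04, 6.48, 7.52 and 6.37 CPM in batch 1 FR libraries at 0 hpa, a log2 fold change of 3.64 ± 0.22 (edgeR adjusted p = 5.79e-19).

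A match to a phosphatidylinositol 4,5-bisphosphate phosphodiesterase (R036834c0g2_i02), a phospholipase C that releases the calcium-mobilizing messenger inositol trisphosphate, behaved alike, although its second protein match is a catalytically inactive relative. HR tips had 173, 112 and 182 CPM at 3 hpa, 92.0, 86.3 and 83.5 CPM at 24 hpa and 75.2, 79.1 and 89.9 CPM at 48 hpa, against 35.0, 35.0 and 39.5 CPM in batch 2 libraries at 0 hpa. The 24 hpa libraries were all above 0 hpa (log2 fold change 1.33 ± 0.10, edgeR adjusted p = 5.39e-15). FR tips also rose at 3 hpa, to 191, 166 and 205 CPM, against 30.1 to 36.3 CPM in batch 1 FR libraries at 0 hpa (2.44 ± 0.10, edgeR adjusted p = 1.35e-26). At 24 hpa the wounds had parted: HR tips kept the values above, against 47.2, 43.2 and 45.8 CPM in FR tips. These groups did not overlap (log2 fold change 0.95 ± 0.10, edgeR adjusted p = 4.04e-10).

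The NBL1 match, described with the foot below, and 2 unnamed members shared this early peak in FR tips. The NBL1 match had 8.44, 8.47 and 8.34 CPM in FR tips at 3 hpa, a log2 fold change of 2.35 ± 0.33 against 0 hpa (edgeR adjusted p = 2.46e-07). R035671c0g1_i01 had 8.79, 5.16 and 10.04 CPM in HR tips at 3 hpa and 12.7, 15.0 and 11.1 CPM in FR tips at 3 hpa, and was at or near 0 in both wounds at 0 hpa. R028232c0g1_i01 had 7.30, 9.37 and 7.89 CPM in FR tips at 3 hpa, with a log2 fold change of 3.52 ± 0.42 against 0 hpa (edgeR adjusted p = 3.54e-09). Over the 61 libraries, TMEM175 and R035671c0g1_i01 had a Pearson correlation of 0.91 on the log2 scale, R035671c0g1_i01 and R028232c0g1_i01 one of 0.90, and the phospholipase match and TMEM175 one of 0.89. These are descriptions over libraries that share group, depth and batch.

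**Figure D2:**
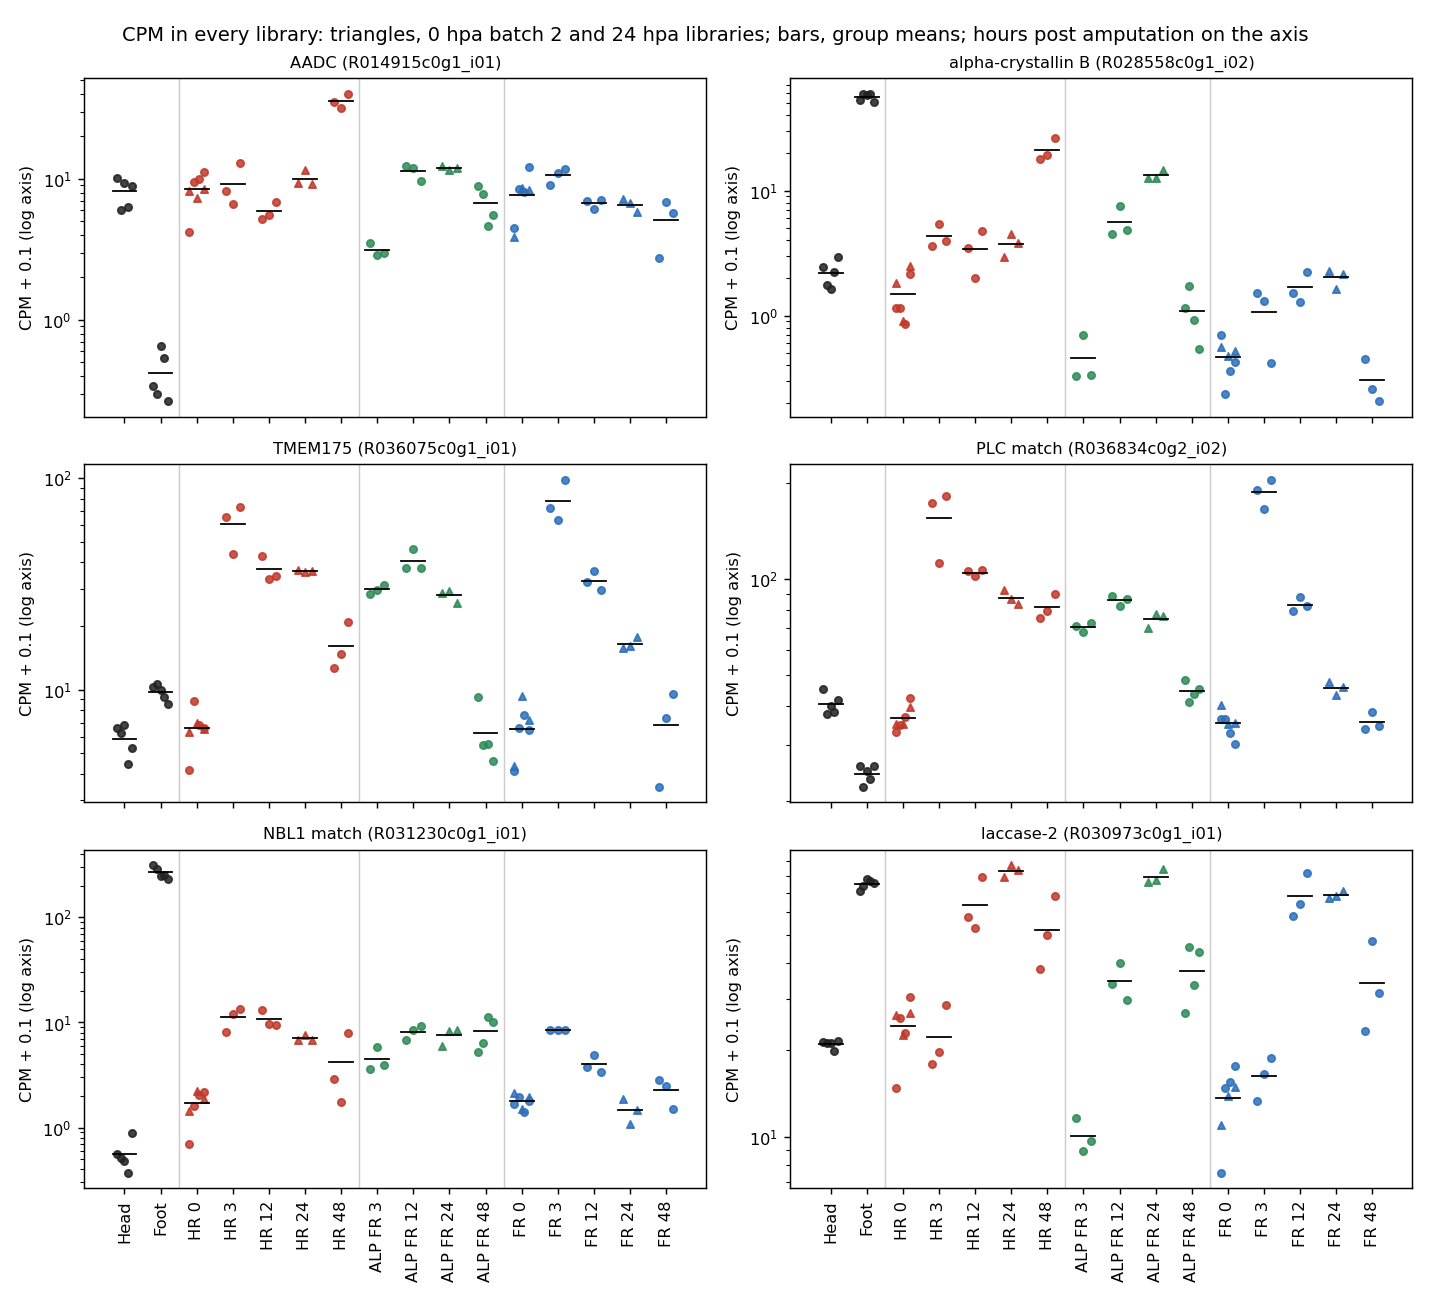
Level of 6 named members in every library (CPM plus 0.1, log axis), by tissue, tip and time, with circles for batch 1 or an unknown batch, triangles for the batch 2 tips and bars for group means. The TMEM175 and phospholipase matches are highest at 3 hpa at both wounds, the decarboxylase is highest in HR tips at 48 hpa, and the NBL1 and alpha-crystallin matches are highest in Foot.

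The rise of the members was not limited to the oral wound. Against 0 hpa, FR tips had 18 members higher and 1 lower at 3 hpa, 18 higher and 1 lower at 12 hpa, 22 higher and none lower at 24 hpa and 11 higher and none lower at 48 hpa (edgeR's quasi-likelihood test). Of all transcripts tested, 5.22% were higher and 4.61% lower at 3 hpa, and 5.05% were higher and 2.88% lower at 12 hpa. At 24 hpa 9.28% were higher and 10.1% lower, and at 48 hpa 9.15% were higher and 7.94% lower. All 22 members that rose in FR tips at 24 hpa were among the 31 that rose in HR tips at that time. Another 19 members were called higher at no time in FR tips, R033109c0g1_i01 (lower at 3 hpa) and R039427c0g1_i02 (lower at 12 hpa) among them, and 17 were called higher neither there nor in HR tips at 24 hpa, so for those 17 a rise rests on the values that chose them. The share of all transcripts called higher at no time in FR tips was not counted.

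**Figure D3:**
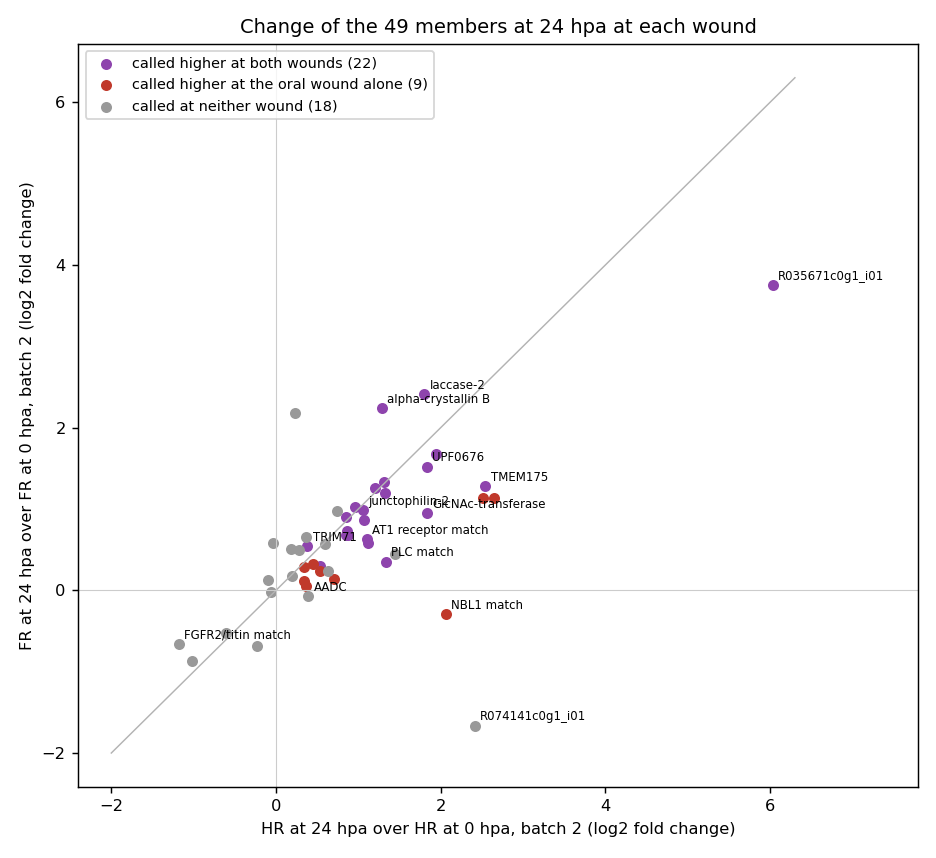
Log2 fold change from 0 to 24 hpa for the 49 members, in HR tips (horizontal axis) and in FR tips (vertical axis), both within batch 2 and fitted with edgeR. Marks separate 22 members called higher at both wounds, 9 called higher at the oral wound alone and 18 called higher at neither.

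The members called higher at all 4 times in FR tips were the UPF0676 match, the junctophilin-2 match, R015976c0g1_i02 and R038034c3g4_i04, although at 3 hpa the call of R015976c0g1_i02 (0.97) was lost without any of 5 libraries (0.83 to 0.99) and that of R038034c3g4_i04 (0.51) without FR library 1 (0.43). How many of all transcripts were called higher at all 4 times was not counted. The UPF0676 match (R010432c0g1_i01), a protein family of unknown role, had 52.5, 52.7 and 57.4 CPM in HR tips at 24 hpa and 43.8, 46.7 and 44.6 CPM in FR tips at 24 hpa, against 15.3, 17.4 and 15.0 CPM in batch 2 HR libraries at 0 hpa. All 6 tip libraries were above 0 hpa, with log2 fold changes of 1.83 ± 0.14 in HR tips (edgeR adjusted p = 8.45e-15) and 1.52 ± 0.14 in FR tips (edgeR adjusted p = 7.04e-12). Head had 9.64 to 13.3 CPM and Foot 7.02 to 9.39 CPM, and the Foot was lower than the FR body column by the test (-0.77 ± 0.12, edgeR adjusted p = 8.36e-08).

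Junctophilins tether the plasma membrane to the endoplasmic reticulum in excitable cells of animals in which they have been studied. The junctophilin-2 match (R034359c0g1_i01) had 114, 112 and 106 CPM in HR tips at 24 hpa and 92.3, 99.8 and 93.9 CPM in FR tips at 24 hpa, against 55.5, 51.4 and 60.4 CPM in batch 2 HR libraries at 0 hpa. No tip library overlapped 0 hpa, and the rise was 1.06 ± 0.09 in HR tips (log2 fold change, edgeR adjusted p = 2.78e-14). In FR tips it lasted to 48 hpa with 98.7, 106 and 96.1 CPM (1.00 ± 0.08, edgeR adjusted p = 6.11e-14). Head had 52.1 to 57.5 CPM, whereas Foot was at 224 to 250 CPM, a log2 fold change of 2.44 ± 0.06 (edgeR adjusted p = 9.77e-38).

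R038701c1g1_i01, without a protein name, had 17.1, 18.8 and 15.0 CPM in HR tips at 48 hpa and 6.18 to 8.02 CPM in Head, against 4.13 to 6.65 CPM at 0 hpa. By these library totals only the lowest Head libraries overlapped the highest library at 0 hpa, and the Head difference was 0.41 (log2 scale). With TMM-scaled library sizes that difference was 0.70, so R038701c1g1_i01 was among the members lost at the Head limit. By 24 hpa its HR tips had 12.0, 13.7 and 13.3 CPM, against 5.63 to 7.13 CPM in batch 2 libraries at 0 hpa (1.11 ± 0.15, edgeR adjusted p = 7.74e-08). R015976c0g1_i02 had 26.4, 15.0 and 36.9 CPM in HR tips at 48 hpa and only 0.83 to 2.04 CPM in Head, against 7.55, 3.37, 4.89 and 3.94 CPM at 0 hpa, the lowest Head relative to the body column among the members described here by library. It rose at both wounds by 24 hpa, with 18.7, 16.7 and 20 CPM in HR tips, against 17.7, 19.4 and 19.5 CPM in FR tips, whose ranges overlapped. The rise was 1.94 ± 0.26 in HR tips (log2 fold change, edgeR adjusted p = 2.77e-08) and 1.68 ± 0.25 in FR tips (edgeR adjusted p = 7.44e-07), and the test of their difference was not passed (0.26 ± 0.36, edgeR adjusted p = 0.912). R038034c3g4_i04 had 62.6, 67.0 and 67.1 CPM in HR tips at 48 hpa and 13.6 to 17.3 CPM in Head, against 18.1 to 22.6 CPM at 0 hpa. By its identifier it belongs to the same assembled gene as the member R038034c3g4_i06, so the counting could split reads between the 2 and they are not independent. Its rise to 24 hpa in HR tips was 0.87 ± 0.11 (log2 fold change, edgeR adjusted p = 1.36e-08).

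Several named members rose at both wounds at 24 hpa. The laccase-2 match (R030973c0g1_i01), a copper oxidase whose role in hardening the cuticle is known from insects, had 79.5, 87.0 and 83.6 CPM in HR tips and 67.2, 68.0 and 71.0 CPM in FR tips at 24 hpa, against 26.3, 22.5 and 26.8 CPM in batch 2 HR libraries and 10.9, 13.7 and 14.8 CPM in batch 2 FR libraries at 0 hpa. The rises, 1.80 ± 0.21 in HR tips (edgeR adjusted p = 1.47e-09) and 2.41 ± 0.22 in FR tips (edgeR adjusted p = 4.4e-12), were in libraries that did not overlap 0 hpa. The match to an N-acetyllactosaminide N-acetylglucosaminyltransferase (R038071c4g1_i01), which extends sugar chains on glycoproteins, had 6.83, 5.21 and 6.26 CPM in HR tips at 24 hpa, against 2.03, 1.76 and 1.58 CPM at 0 hpa (1.83 ± 0.26, edgeR adjusted p = 1.54e-07). Its FR tips had 4.51, 3.84 and 4.03 CPM, against 0.795, 3.08 and 2.50 CPM at 0 hpa (0.95 ± 0.26, edgeR adjusted p = 0.00447), a call that was lost without any of 4 of the 6 libraries (0.59 to 1.03). The match to the type-1 angiotensin II receptor (R036895c0g1_i01), by name a G protein-coupled receptor, had 16.9, 17.0 and 14.1 CPM in HR tips and 14.8, 17.9 and 17.8 CPM in FR tips at 24 hpa, which overlapped each other, against 6.70, 7.97 and 8.82 CPM in batch 2 HR libraries at 0 hpa. It rose by 1.10 ± 0.15 in HR tips (edgeR adjusted p = 5.35e-08) and by 0.63 ± 0.14 in FR tips (edgeR adjusted p = 0.000608).

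The TRIM71 match (R032285c0g1_i01) belongs to a family of RNA-binding ubiquitin ligases whose nematode member, lin-41, times development. Its levels were tight: 83.1, 89.4 and 85.6 CPM in HR tips at 48 hpa and 20.4 to 25.6 CPM in Head, against 38.0 to 38.4 CPM at 0 hpa, with no overlap between any 2 groups. At 24 hpa HR tips had 48.4, 53.0 and 46.3 CPM, against 41.3, 39.9 and 37.7 CPM at 0 hpa, a small rise of 0.38 ± 0.07 (log2 fold change, edgeR adjusted p = 1.62e-05). Most of the difference seen at 48 hpa was therefore not yet present at 24 hpa, whereas FR tips at 48 hpa had 42.3, 45.6 and 43.2 CPM.

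Direct comparisons of the wounds asked whether the members are oral. At 24 hpa, 9 members were higher and 5 lower in HR than in FR tips (edgeR's quasi-likelihood test), against 2.51% higher and 1.89% lower of all transcripts tested. Of the members 18.4% were higher and 10.2% lower, beside 19.7% and 7.83% of the 690 transcripts that are also high in Head. The 9 were the matches to TMEM175, the phospholipase and NBL1 together with R035671c0g1_i01, R028232c0g1_i01, R024966c0g1_i01, R028478c0g1_i01, R029952c0g1_i01 and R038969c0g1_i05. TMEM175 had 36.5, 35.9 and 36.1 CPM in HR tips, against 15.7, 15.97 and 17.6 CPM in FR tips, with no overlap (log2 fold change 1.15 ± 0.22, edgeR adjusted p = 0.000149). R035671c0g1_i01 had 6.48, 4.10 and 4.77 CPM in HR tips, against 0.862, 1.18 and 0.989 CPM in FR tips (2.36 ± 0.39, edgeR adjusted p = 1.26e-05). Each of the 5 members described above with the early peak was thus called higher in HR than in FR tips at 24 hpa. None of these 5 passed the test between the wounds at 3 hpa. R040462c1g2_i04 also had its highest HR level at 3 hpa, although its libraries there differed widely (243, 124 and 86.2 CPM). At 24 hpa it was called in neither direction. It then had 19.55, 17.3 and 19.3 CPM in HR tips, against 21.0, 22.8 and 26.1 CPM in FR tips.

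The test of whether the change from 0 to 24 hpa itself differed between the wounds was passed by 1 member, against 0.453% of all transcripts higher in HR and 0.0849% lower: the phospholipase match, whose change was 0.98 ± 0.14 larger in HR tips (log2 scale, edgeR adjusted p = 2.07e-05). For TMEM175 the difference was 1.26 (edgeR adjusted p = 0.0484) and for NBL1 2.35 (edgeR adjusted p = 0.0169), both outside the threshold of 0.01. At 0 hpa, 2 members were higher and 5 lower in HR than FR libraries of batch 2, against 0.668% and 1.15% of all transcripts, and without HR replicate 7 the total was 4. R024966c0g1_i01 already differed at 0 hpa, with 3.26, 1.84 and 4.02 CPM in HR libraries, against 0.795, 0.974 and 1.49 CPM in FR libraries (1.39, edgeR adjusted p = 0.000783), although the call was lost without 3 single libraries in turn (1.15 to 1.31). Its 24 hpa call (1.06, edgeR adjusted p = 0.0059) was lost without any of 5 libraries (0.88 to 1.11), that of R029952c0g1_i01 (0.31) without any of 5 (0.28 to 0.33), and that of R028232c0g1_i01 (2.04, edgeR adjusted p = 0.00139) without any of 3 (1.86 to 1.95).

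At 3 hpa, 1 member was higher and 8 lower in HR than in FR tips, against 1.26% and 1.65% of all transcripts, and the total was 5 without FR replicate 1, FR replicate 4, HR replicate 1 or HR replicate 4. At 12 hpa, 3 were higher and 3 lower, against 4.52% and 4.06%, and the total was 3 without FR replicate 1 or without HR replicate 4. Over the 49 members the median log2 fold change at 3 hpa was -0.05, with 23 above 0. R035887c0g3_i01 was among the members lower in HR tips at both times. It was already lower at 0 hpa in batch 2, with 37.4, 39.45 and 34.7 CPM in HR libraries, against 47.2, 58.8 and 63.4 CPM in FR libraries. That difference was called by the test, but the call was lost without some single libraries (log2 fold changes -0.63 to -0.55). It had 31.4, 24.6 and 32.8 CPM in HR tips at 3 hpa, against 54.7, 61.8 and 69.9 CPM in FR tips, and at 12 hpa 28.8, 33.7 and 23.2 CPM in HR tips, against 63.3, 58.0 and 48.4 CPM in FR tips. The wounds overlapped at neither time (log2 fold changes -1.04, edgeR adjusted p = 3.56e-07, and -1.03, edgeR adjusted p = 8.36e-07). By 48 hpa the order had turned, with 149, 114 and 105 CPM in HR tips, against 76.2, 80.3 and 64.4 CPM in FR tips.

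All 5 members lower in HR than in FR tips at 24 hpa were also lower in the mature foot than in the body column, as were 18 of the 49. They are R037827c0g2_i04, R033109c0g1_i01, R039427c0g1_i02, R033623c0g1_i01 and R040056c0g2_i03, none with a protein name, and the 24 hpa call of R033623c0g1_i01 (-1.07) was lost without HR replicate 1 (-0.91). R039427c0g1_i02 had 9.36, 8.33 and 11.3 CPM in HR tips at 24 hpa, against 18.1, 17.3 and 16.4 CPM in FR tips (log2 fold change -0.83 ± 0.11, edgeR adjusted p = 7.46e-08). The groups did not overlap, and the body column differed in the same way before any time had passed, with 11.1, 11.4 and 9.05 CPM in HR libraries at 0 hpa, against 20.5, 16.7 and 17.1 CPM in FR libraries (-0.79 ± 0.10, edgeR adjusted p = 2.05e-07). Its 48 hpa HR libraries, at 27.9, 28.8 and 23.9 CPM, were then above all of these. R033109c0g1_i01, among the most abundant members, had 92.2, 100 and 89.6 CPM in HR tips at 24 hpa, against 127, 131 and 130 CPM in FR tips, and stood at 227, 212 and 185 CPM in HR tips at 48 hpa. Over the 61 libraries R037827c0g2_i04 and R039427c0g1_i02 had a Pearson correlation of 0.92, and R033623c0g1_i01 and R039427c0g1_i02 one of 0.91.

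**Figure D4:**
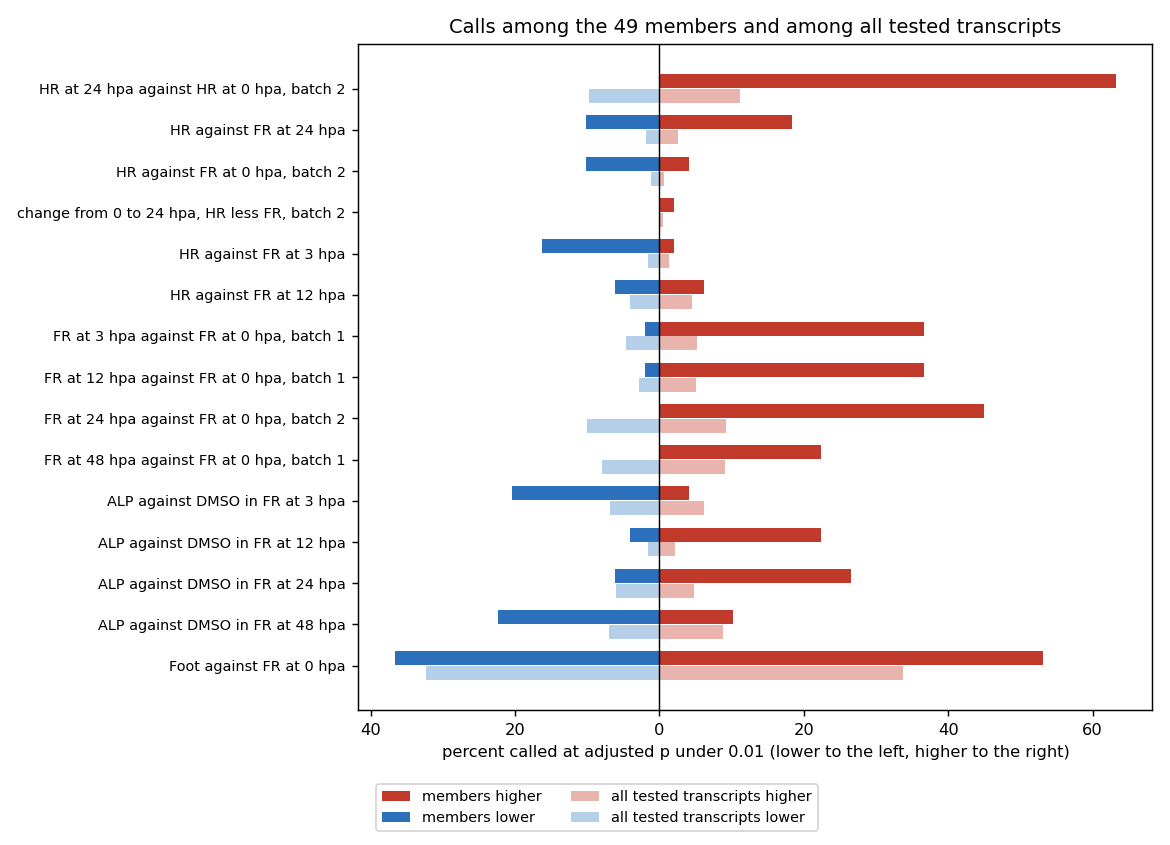
Percent of the 49 members and of all 17676 transcripts tested that were called higher or lower (edgeR adjusted p under 0.01) in each comparison. Members exceed all transcripts most at 24 hpa in HR tips and at 3, 12 and 24 hpa in FR tips. In Foot, 53.1% of members and 33.7% of all transcripts were higher, and 36.7% and 32.3% were lower.

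The mature foot was the group that split the members most. Of the 49, 26 were higher and 18 lower in Foot than in FR body column at 0 hpa (edgeR's quasi-likelihood test), but 33.7% and 32.3% of all transcripts tested were called as well, so a call there is common. With library totals alone, 23 members were higher and 19 lower, beside 4485 higher and 7486 lower of all transcripts. The sizes at the top were large. The match to NBL1 (R031230c0g1_i01), a secreted protein of the DAN family that binds and blocks bone morphogenetic proteins in vertebrates, had 313, 289, 250, 256 and 234 CPM in Foot, against 1.30 to 2.05 CPM in FR libraries at 0 hpa (log2 fold change 7.57 ± 0.20, edgeR adjusted p = 5.6e-37). The alpha-crystallin B match (R028558c0g1_i02), a small heat-shock protein that holds unfolded proteins, had 51.6 to 59.6 CPM in Foot, against 0.136 to 0.597 CPM at 0 hpa (7.49 ± 0.23, edgeR adjusted p = 7.05e-34). Foot lay far above every library of 0 hpa in both.

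These foot transcripts were far lower in the regenerating head than in the foot. NBL1 had 7.98, 11.8 and 13.4 CPM in HR tips at 3 hpa, 6.68, 7.47 and 6.71 CPM at 24 hpa and 2.79, 1.65 and 7.83 CPM at 48 hpa, with Head at 0.271 to 0.785 CPM. The 48 hpa libraries overlapped those of 0 hpa (0.591, 1.51, 1.94 and 2.07 CPM), and its place among the members rests on library 4 (the 3 are numbered 1, 3 and 4). At 24 hpa it was higher in HR tips than at 0 hpa (2.06 ± 0.33, edgeR adjusted p = 2.23e-06) and than in FR tips, which had 1.77, 0.990 and 1.38 CPM (2.31 ± 0.35, edgeR adjusted p = 2.97e-06). Alpha-crystallin B was the member with the largest difference that chose it, at 17.9, 19.4 and 26.1 CPM in HR tips at 48 hpa and 1.53 to 2.86 CPM in Head, against 1.05, 1.05, 0.752 and 2.07 CPM at 0 hpa. It was at 0.349, 0.161 and 0.107 CPM in FR tips at 48 hpa, so at the time when the oral wound was high the aboral wound held almost none of this foot transcript. At 24 hpa its call in HR tips (1.28 ± 0.32, edgeR adjusted p = 0.0014) was lost without HR replicate 6 at 0 hpa (0.91) or without HR replicate 2 at 24 hpa (1.12).

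Another foot transcript carries conflicting names. R025924c0g1_i01 is matched to fibroblast growth factor receptor 2, a receptor tyrosine kinase, in one source and to titin, a giant muscle protein, in another. It had 5.04, 5.12 and 3.66 CPM in HR tips at 48 hpa and 0.679 to 1.85 CPM in Head, against 0.755 to 1.42 CPM at 0 hpa, and its HR tips at 24 hpa, at 0.304, 0.796 and 0.452 CPM, were not above the body column. In Foot it stood at 38.9 to 45.0 CPM, against 0.0648 to 0.866 CPM in FR libraries at 0 hpa (6.78 ± 0.21, edgeR adjusted p = 3.9e-34). R031071c0g1_i01 had 13.9 to 16.8 CPM in Foot (4.26, edgeR adjusted p = 1.33e-18) and 1.86, 2.72 and 5.55 CPM in HR tips at 48 hpa. Laccase-2, at 71.2 to 78.3 CPM in Foot, was 2.71 ± 0.16 higher than at 0 hpa (edgeR adjusted p = 5.81e-22), about as high as in HR tips at 24 hpa. At the other end were the decarboxylase, R039427c0g1_i02 at 1.60 to 2.03 CPM in Foot (-3.01 ± 0.10, edgeR adjusted p = 2.7e-32) and R035887c0g3_i01 at 8.51 to 12.7 CPM (-2.11, edgeR adjusted p = 3.83e-23).

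ALP was given to ask what added Wnt activity does at the aboral wound, and the members' calls were mostly lower at 3 and 48 hpa and mostly higher at 12 and 24 hpa. Of the 690 transcripts also high in Head, 1.59% were higher and 15.8% lower with ALP at 3 hpa, and 24.3% and 0.58% at 12 hpa. Their shares were 18.3% and 7.83% at 24 hpa, and 7.54% and 11.4% at 48 hpa. At 3 hpa, the end of the treatment, 2 members were higher and 10 lower in ALP-treated than in DMSO-treated FR tips, against 6.16% and 6.86% of all transcripts tested (edgeR's quasi-likelihood test). With library totals alone, 2 members were higher and 11 lower, beside 343 higher and 1778 lower of all transcripts. The DMSO libraries here are those that were set against 0 hpa above. The phospholipase match had 71.3, 67.9 and 72.7 CPM with ALP, against 191, 166 and 205 CPM with DMSO (-1.30 ± 0.10, edgeR adjusted p = 2e-14). TMEM175 had 28.3, 29.6 and 31.2 CPM with ALP, against 72.1, 63.2 and 98.4 CPM with DMSO (-1.29 ± 0.21, edgeR adjusted p = 5.77e-06), and neither pair of groups overlapped. The ALP libraries of both transcripts were still above every FR library at 0 hpa. The decarboxylase had 3.40, 2.78 and 2.86 CPM with ALP, against 8.91, 10.99 and 11.6 CPM with DMSO (-1.69 ± 0.31, edgeR adjusted p = 4.12e-05). R035887c0g3_i01 went the other way, with 96.3, 98.7 and 106 CPM, against 54.7, 61.8 and 69.9 CPM (0.79, edgeR adjusted p = 1.9e-05).

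At 12 hpa, 11 members were higher and 2 lower with ALP, against 2.19% and 1.62% of all transcripts, with the total at 8 without DMSO-treated FR replicate 1 and 7 without ALP-treated replicate 2. At 24 hpa, 13 were higher and 3 lower, against 4.73% and 6.06%, and 7 of the 13 had also been higher at 12 hpa. Alpha-crystallin B had 12.6, 12.5 and 14.6 CPM with ALP at 24 hpa, against 2.18, 1.55 and 2.06 CPM with DMSO (2.75 ± 0.27, edgeR adjusted p = 3.37e-11). NBL1 had 5.92, 8.17 and 8.36 CPM, against 1.77, 0.990 and 1.38 CPM (2.40 ± 0.35, edgeR adjusted p = 6.33e-07), and R025924c0g1_i01 had 3.78, 3.50 and 3.10 CPM, against 0.304, 0.371 and 0.514 CPM (3.05 ± 0.36, edgeR adjusted p = 4.51e-09). None of the 3 overlapped between ALP and DMSO. The ALP-treated aboral tips at 24 hpa were thus close to HR tips at 24 hpa for NBL1 and above them for the other 2, while all 3 stayed far under the Foot. Of the 13 calls at 12 hpa, 8 were lost without at least 1 single library. Laccase-2 was lower with ALP, at 33.7, 40.1 and 29.6 CPM, against 57.9, 63.7 and 82.2 CPM with DMSO (-1.02 ± 0.21, edgeR adjusted p = 0.000614), but not without DMSO-treated FR replicate 4 (-0.86) or ALP-treated replicate 3 (-0.91), and R025924c0g1_i01 (1.72, edgeR adjusted p = 0.00377) lost its call without any of 4 single libraries (1.46 to 1.58).

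At 48 hpa, 5 members were higher and 11 lower with ALP, against 8.84% and 6.99% of all transcripts. The 5 higher members, alpha-crystallin B, NBL1, R025924c0g1_i01, R031071c0g1_i01 and R039313c2g1_i01, were all among those higher at 24 hpa, where the call of R031071c0g1_i01 was lost without any of 5 libraries (1.31 to 1.60). R031071c0g1_i01 had 2.62, 8.28, 7.43 and 7.46 CPM with ALP, against 0.543, 1.07 and 0.481 CPM with DMSO (3.20 ± 0.44, edgeR adjusted p = 1.39e-07), and NBL1 had 5.16, 6.33, 11.2 and 10.1 CPM, against 2.71, 2.41 and 1.39 CPM (1.89 ± 0.29, edgeR adjusted p = 1.36e-06). Neither overlapped. The call of alpha-crystallin B at 48 hpa (2.02 ± 0.57, edgeR adjusted p = 0.00583) was lost without any of 4 single libraries (1.75 to 1.94). Of the 11 lower members, 8 were also lower in Foot, as were 18 of the 49. Junctophilin-2 had 64.0, 53.2, 63.5 and 54.9 CPM with ALP, against 98.7, 106 and 96.1 CPM with DMSO (-0.77 ± 0.08, edgeR adjusted p = 5.49e-11), and UPF0676 had 18.8, 19.1, 17.4 and 18.7 CPM, against 32.4, 36.3 and 30.9 CPM (-0.86 ± 0.13, edgeR adjusted p = 1.12e-06). With ALP both were back near the body column, which had 47.4 to 54.9 CPM of junctophilin-2 and 13.7 to 17.9 CPM of UPF0676 in batch 1 FR libraries at 0 hpa. The call of R015976c0g1_i02 (-1.03, edgeR adjusted p = 0.000371) was lost without DMSO-treated FR replicate 4 (-0.61).

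Lists of pathway genes named by the study or by protein match give the setting of these values. Of 10 Wnt pathway transcripts, 7 were higher in HR tips at 24 hpa than at 0 hpa with a median log2 fold change of 1.26, and none was a member. Of 8 BMP and TGF-beta transcripts, the pathway on which DAN family proteins act, 8 were higher in Foot than at 0 hpa, with a median of 5.00, whereas 1 was higher and 1 lower in HR tips at 24 hpa. Of 19 FGF ligands and receptors, to which R025924c0g1_i01 belongs by one of its names, 18 were higher in Foot with a median of 3.28, and 4 were higher and 1 lower with ALP at 24 hpa. Of all transcripts tested, 11.2% were higher and 9.78% lower in HR tips at 24 hpa, and 33.7% were higher in Foot. With ALP at 24 hpa, 4.73% were higher and 6.06% lower. The lists were taken partly from the study's own selections on these libraries and are not independent evidence of direction.

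The members that best followed the mean of all members over the 61 libraries were R036085c0g1_i01 (Pearson correlation 0.83), R028478c0g1_i01 (0.79), R038034c3g4_i04 (0.78), R029952c0g1_i01 (0.75) and R038643c0g1_i02 (0.74), with each member's own level included in that mean. All but R038643c0g1_i02 were highest of all groups in HR tips at 48 hpa. R038643c0g1_i02 instead was highest in ALP-treated FR tips at 24 hpa and, among HR times, at 12 hpa. It had 258, 299 and 308 CPM in HR tips at 48 hpa and 67.4 to 108 CPM in Head, against 109 to 138 CPM at 0 hpa. Its HR tips had 342, 309 and 289 CPM at 12 hpa and 242, 240 and 238 CPM at 24 hpa, and ALP-treated FR tips at 24 hpa had 363, 429 and 431 CPM, against 186, 194 and 188 CPM with DMSO. Every one of these tip libraries was above the 0 hpa and Head libraries, and the highest values were those of ALP-treated tips. None of the 5 had a protein name.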

How the data were processed

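RNA-seq libraries of tissue pools were analysed as deposited. Per the labels, the authors cleaned the reads with Trimmomatic (0.39, whereas the methods name another version) and mapped them by Bowtie2 to an *H. oligactis* transcriptome thinned of redundant sequences. RSEM then gave the deposited expected counts of each transcript, of which 5.33% of values were not whole and which were rounded for testing. The deposited FPKM values, also made by the authors with RSEM, served 1 alternative (35 columns). Another 4 FPKM columns, all named for HR at 3 hpa, were left out, since 3 such samples are described.

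Of 61 count columns, 30 were matched to a single sample and 31 to a group. Libraries carry the number of their column. Groups were fitted together in edgeR 4.0.16 (R 4.3.3) with TMM scaling, filterByExpr and the quasi-likelihood F-test, with 1 term per group and 0 hpa split by batch. Foot was set against both FR 0 hpa batches, weighted 0.6 and 0.4. A call was a Benjamini-Hochberg adjusted p under 0.01 over 17676 transcripts, which included all 49 members. The procedure was tested on simulated data.

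Alternatives used limma 3.58.1, DESeq2 1.42.0, ComBat_seq (sva 3.50.0), other scalings, filters, thresholds and each library left out. Members named by rule were those with the 12 largest rises, a protein name, a place near a limit or the closest mean profile. The members and lists were chosen with earlier results of these data known. Names are protein matches from the study's tables.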

Additional observations from a re-analysis of the deposited data

Results flagged for a closer look

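In 110 member and group combinations with 4 to 10 libraries, 4 had 1 library far from the others by Dixon's ratio of gap to range, where chance alone gives about 1 in 20. R035671c0g1_i01 in batch 1 FR libraries at 0 hpa had a ratio of 1, from 1 library at 0.0648 CPM with the others at 0. R076710c0g1_i01 in Head also had a ratio of 1, from 1 library at 0.0638 CPM with the others at 0. R074141c0g1_i01 in batch 1 FR libraries at 0 hpa had a ratio of 0.852, from 1 library at 0.265 CPM, and the laccase-2 match R030973c0g1_i01 in Head had 0.738, from 1 library at 19.7 CPM with the others at 21.0 to 21.5 CPM.

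The change of the phospholipase match R036834c0g2_i02 from 0 to 24 hpa differed between the wounds. It was 0.98 (0.979) larger on the log2 scale in HR than in FR tips (edgeR adjusted p = 2.07e-05), with all 3 HR libraries above all 3 FR libraries at 24 hpa, and its call held in each fit that left out 1 of the libraries compared.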

How the results depend on the processing

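No call of a single member changed direction. The members' median Head difference, which carries no test, turned from -0.05 by library totals to 0.21 with TMM-scaled library sizes. Of 240 calls of single members, 238 were kept with ComBat_seq-corrected counts or the DESeq2 Wald test, 239 with an additive batch term, 236 with DESeq2 size factors or without a filter on low counts, 228 with library totals alone and 162 with glmTreat at a fold of 1.2. In fits with the compared libraries alone 208 of 238 were kept, and with each library left out in turn 1574 of 1775.

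The members called in total moved by over 1.5 times as follows. With glmTreat there were 2, 4, 3 and 9 for HR against FR at 0, 3, 12 and 24 hpa, 10, 12 and 5 for FR at 3, 12 and 48 hpa against 0 hpa, and 7, 6 and 10 for ALP at 3, 12 and 24 hpa. Calls over all transcripts fell in each of these too. For HR against FR at 24 hpa they went from 443 higher and 334 lower to 244 and 159. With an adjusted p under 0.05 there were 11 for HR against FR at 0 hpa, 10 at 12 hpa and 4 for the difference in change. Over all transcripts there were then 209 higher and 283 lower, 1516 and 1499, and 177 and 54. For HR against FR at 0 hpa an additive batch term gave 12 and ComBat_seq 14, beside 260 higher and 416 lower, and 277 and 465, of all transcripts. For the difference in change they gave 3 and 4, and the DESeq2 Wald test 2. Over all transcripts these settings gave 179 higher and 28 lower, 216 and 33, and 126 and 27. With the compared libraries alone there were 29 for HR against FR at 24 hpa, 5 for the difference in change, 7 for FR at 48 hpa and 25 for ALP at 24 hpa. All transcripts moved too, with 936 higher and 1027 lower of 15504 for HR against FR at 24 hpa. The others had 173 and 33 of 16072, 455 and 377 of 15339, and 1308 and 1283 of 15421. With limma on log2(FPKM + 0.1) there were 9 for HR against FR at 24 hpa, beside 361 higher and 312 lower of all transcripts. A Head limit of 0 left 26 members. The causes were not tested.

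Libraries with the same number in 2 groups did not deviate together (correlations of -0.12 to 0.02), so they were not treated as pairs. The replicate block gave 29 calls for HR against FR at 24 hpa, 27 for ALP at 24 hpa and, added after seeing the data, 3 for HR against FR at 0 hpa. Over all transcripts it gave 923 higher and 1006 lower of 15504, 1390 and 1363 of 15421, and 64 and 110 of 15584.

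With each library left out the totals were 27 to 30 for HR at 24 hpa against 0 hpa, 19 to 21, 14 to 20, 16 to 19 and 8 to 12 for FR at 24, 3, 12 and 48 hpa, 11 to 13, 4 to 7, 5 to 8 and 3 to 6 for HR against FR at 24, 0, 3 and 12 hpa, 1 in each fit for the difference in change, 9 to 12, 7 to 10, 14 to 16 and 14 to 16 for ALP at 3, 12, 24 and 48 hpa, and 42 to 45 for Foot. The rule itself took 42 to 56 transcripts without 1 HR library at 48 hpa. After seeing the data, the calls were also counted over the 37 members that TMM scaling keeps, with 23 for HR at 24 hpa, 17 for FR at 24 hpa and 10 for HR against FR, and over the 39 kept without HR library 4, with 26, 18 and 11. Library totals moved the median of all transcripts by -0.12 for ALP at 3 hpa and by -0.22 for Foot.

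The 9 members under 1 CPM at 0 hpa rest on few counts, and changes from a level near 0 are given as values. The batch of each Foot and Head library is not known.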
